A study of Mus musculus with 6 samples.

Results

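Glucocorticoid signalling was examined through 7 genes in mouse colon: Nr3c1 (the glucocorticoid receptor), Hsd11b1 (the enzyme that regenerates active steroid inside cells) and 5 common targets of the receptor, Fkbp5, Tsc22d3, Zbtb16, Klf9 and Cdkn1a. The genes were chosen by name for this pathway, with earlier results of these data known. All 7 were among the 24517 genes with a row in the count tables, and all 7 were among the 16347 genes that passed the filter on low counts. The comparison asked whether receptor, steroid activation and targets differed in colon after intestinal loss of NSD2, a histone methyltransferase that dimethylates lysine 36 of histone H3.

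Total RNA of colon was sequenced in 2 groups of 3 libraries. NSD2fl/fl mice carried floxed Nsd2 without recombination, and NSD2∆IE mice carried the same floxed alleles deleted by a Cre driven by the Villin promoter, which is active in intestinal epithelium and not in muscle, nerve, stroma or immune cells. The study's methods place all lines on a C57BL/6J background. HFCD, a diet rich in fat and cholesterol, was given to both groups. The labels state 16 weeks and the study's methods a longer period, and no library came from mice on normal diet, so no value below describes an effect of the diet. The age at collection was not stated in the labels.

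Totals ranged from 38041832 to 38604680 counts per library. Nsd2 itself was at 47.8, 59.1 and 68.9 CPM (counts per library total after scaling by TMM factors) in NSD2fl/fl and at 24.5, 23.1 and 27.5 CPM in NSD2∆IE, a log2 fold change of -1.23 (adjusted p 0.302, SE 0.16). Epithelial markers were present in every library, at a summed 13171 to 21855 CPM over 10 genes in NSD2fl/fl and 12748 to 14527 CPM in NSD2∆IE. Of these markers 9 of 10 were fitted lower in NSD2∆IE, 3 of them without overlap between the groups. Of all 16347 genes tested, 9202 were fitted lower and 1190 were lower without overlap. The median log2 fold change of the markers was -0.28, against -0.04 over all genes tested. It was -0.14 against 0.09 when scaled by library totals alone, and the marker median was -0.09 without NSD2fl/fl replicate 2. The groups also differed in the sex pattern of their transcripts. Xist was at 0 to 4 counts in NSD2fl/fl against 21217 to 24234 in NSD2∆IE, and 4 Y-linked genes summed to 5058 to 6110 counts against 0 to 1, although the study's methods describe male animals. Since each genotype has 1 pattern, genotype and sex pattern cannot be told apart. A second division ran across the genotypes. Hoxb13, a transcription factor of the distal colon, was at 14052, 25 and 12125 counts in NSD2fl/fl replicates 1, 2 and 3 and at 12288, 197 and 1086 counts in NSD2∆IE replicates 1, 2 and 3, and the sign of the first principal component (51.0% of the variance) parted the libraries in the same way. Hoxb13 was singled out after its values were seen, and the labels do not say from which segment each colon sample was taken.

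Glucocorticoids enter cells and bind the receptor, a nuclear receptor held in the cytoplasm by heat shock proteins and immunophilins, which then moves to the nucleus and binds DNA at short palindromic elements. Its targets include brakes on the hormone signal itself (Fkbp5), mediators of anti-inflammatory action (Tsc22d3) and transcription factors (Zbtb16, Klf9), while other genes, many of them inflammatory, are repressed. In the gut, local activation by Hsd11b1 is set against inactivation by Hsd11b2, which protects the mineralocorticoid receptor in the colonic epithelium.

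At the level of the whole set, no gene separated the genotypes. None of the 7 genes reached an adjusted p under 0.05, and the smallest adjusted p among them was 0.578. Over all genes tested 0.0306% did, namely the sex-linked Xist, Ddx3y, Eif2s3y, Kdm5d and Uty. The deleted gene Nsd2 did not (adjusted p 0.302). None reached an unadjusted p under 0.05, against 11.1% of all genes tested. By the threshold of the study (an unadjusted p under 0.05 and a log2 fold change beyond 0.32 in size), 0 of 7 were higher in NSD2∆IE and 0 of 7 lower, against 8.05% and 2.21% of all genes tested. In each of the 7 genes the ranges of the groups overlapped, whereas 18.7% of all genes tested had groups that did not overlap. Fitted log2 fold changes were above 0 for 5 genes and below 0 for 2, with a median of 0.13 against -0.04 over all genes tested. This balance turned to 3 above and 4 below 0, with a median of -0.03, when NSD2fl/fl replicate 3 or NSD2∆IE replicate 2 was left out. The 95% intervals were wide, and several of them included differences beyond the study's fold threshold in both directions, so a difference of that size was not detectable for those genes with these libraries.

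**Figure D1:**
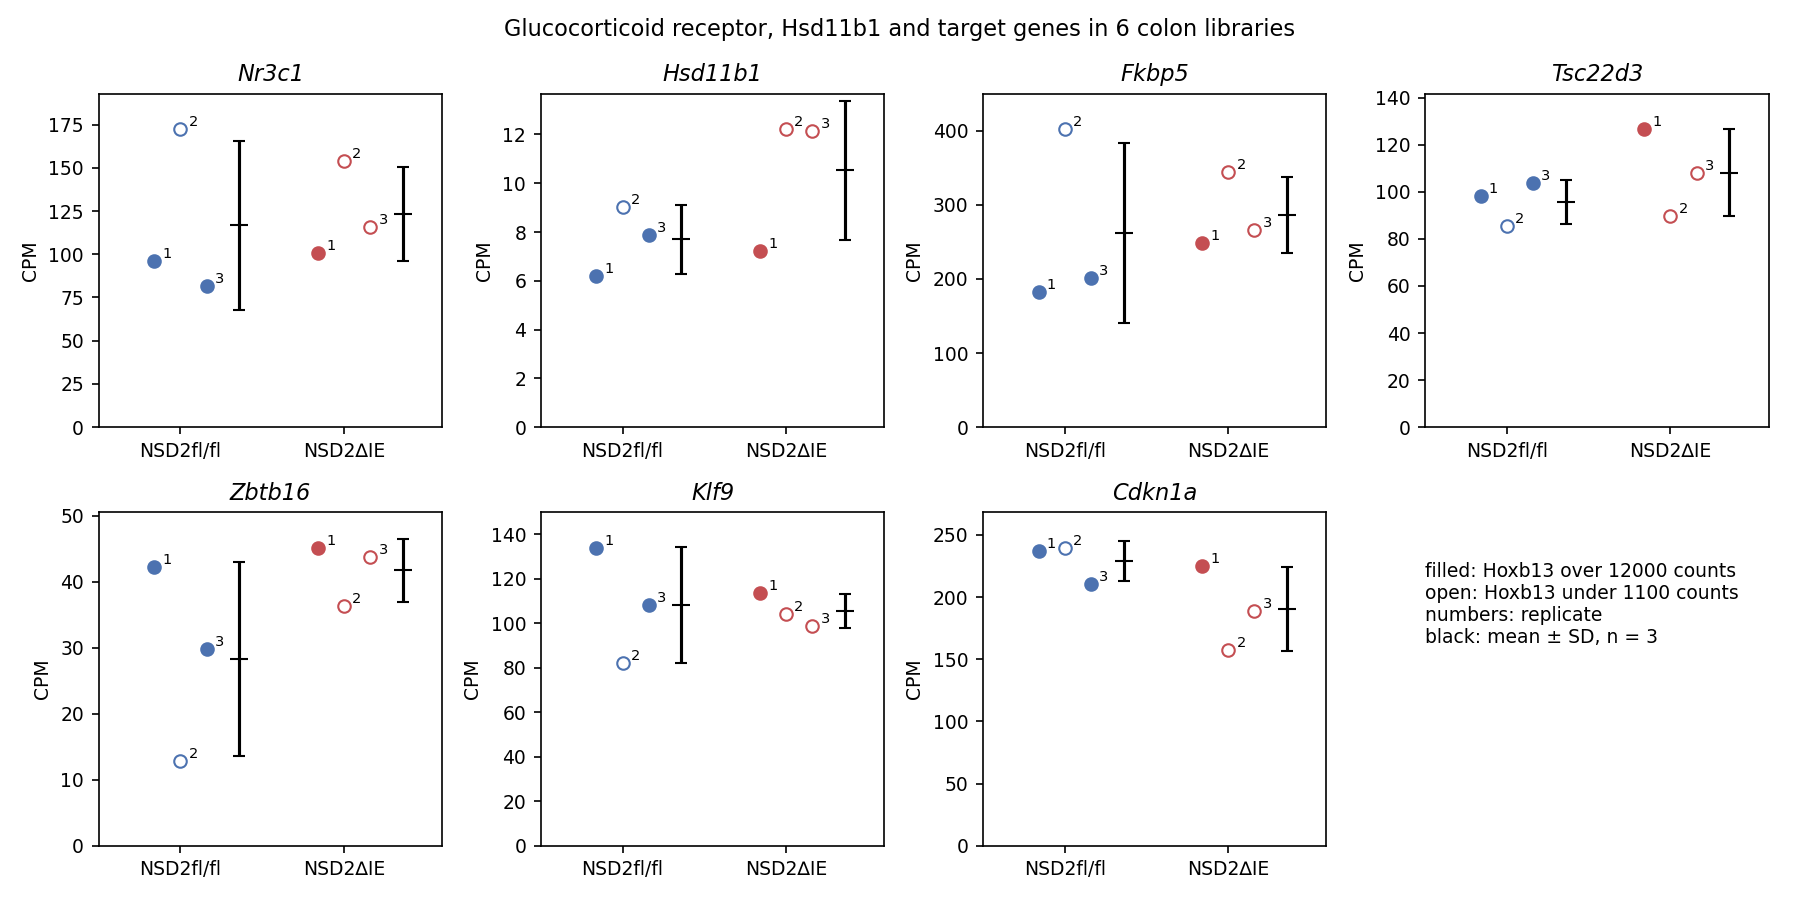
Level of each gene in each library, as CPM scaled by TMM factors on an axis that starts at 0, with numbered points for replicates, filled where Hoxb13 was at 12125 counts or more and open where it was at 1086 or fewer, and black bars for the mean ± SD (n = 3). In each of the 7 panels the points of the 2 genotypes overlap. Open points lie highest for Nr3c1, Fkbp5 and Hsd11b1 and lowest for Klf9.

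Levels between genes were compared per length, as FPKM over all 6 libraries. Cdkn1a was at a mean of 103 FPKM (79.5 to 118) and Fkbp5 at 70.3 FPKM (47.5 to 95.5). Their ranges overlapped, with Cdkn1a the higher in 5 of 6 libraries. Tsc22d3 followed at 25.4 FPKM (19.6 to 32.2), below Fkbp5 in all 6 libraries and without overlap. Klf9, at 23.9 FPKM (16.9 to 30.3), overlapped with Tsc22d3, and Nr3c1, at 13.7 FPKM (8.71 to 18.2), overlapped with Klf9. Hsd11b1 was at 5.56 FPKM (3.79 to 7.95), below Nr3c1 in every library and without overlap, and Zbtb16 at 4.34 FPKM (1.45 to 5.76) overlapped with Hsd11b1. By these means the receptor stood below 4 of its 5 targets.

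Promoter sequence was examined to show where the receptor's element stands beside these genes. RefSeq sequences (GRCm38.p6, the build of mm10) of the 250 bases before each annotated start were searched on both strands for the palindromic glucocorticoid response element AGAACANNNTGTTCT, for its half-site AGAACA and for the E-box CACGTG, which clock proteins bind. A palindrome also counts as half-sites, and the E-box may overlap one. Of 32851 promoters, 3 held the palindrome (0.00913%, those of Sgk1, Acnat2 and Gm35041), 16.1% held a half-site and 6.02% an E-box. Promoters were matched for 5 of the 7 genes, 8 promoters in all, of which 0 held the palindrome, 1 of the 3 of Tsc22d3 held a half-site and that of Fkbp5 held an E-box. Sgk1, a target gene outside the set with the palindrome in 1 of its 6 promoters, is shown for comparison. Fam107a and Per1, whose expression is described below with that of Sgk1, are not among the genes with the palindrome. The part of the element in the expression of any gene was not tested. The stretches around the matches follow, 5′ to 3′ on the gene's strand, with matches in capitals. They cover chr17:28486273-28486358 (minus strand, within Fkbp5 and outside its annotated exons), chrX:140600662-140600747 (minus strand, upstream of Tsc22d3) and chr10:21993640-21993755 (plus strand, within the longest annotated form of Sgk1 and outside its exons).
Fkbp5: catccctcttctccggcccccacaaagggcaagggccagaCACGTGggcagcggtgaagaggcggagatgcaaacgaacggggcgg
Tsc22d3: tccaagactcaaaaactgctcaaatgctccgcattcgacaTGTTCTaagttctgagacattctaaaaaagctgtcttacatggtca
Sgk1: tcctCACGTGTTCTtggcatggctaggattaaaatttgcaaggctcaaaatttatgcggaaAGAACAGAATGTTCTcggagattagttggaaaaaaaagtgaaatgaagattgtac
In Fkbp5 the capitals mark the E-box, which begins at position -169 from the start, and in Tsc22d3 the half-site, at position -185. In Sgk1 the first run of capitals is an E-box that shares bases with a half-site, and the second, at position -189, is the palindrome. A match is a stretch of letters and not a measured binding site, and promoters without a match say only that these letters are not in the window.

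In the receptor gene the genotypes overlapped. Nr3c1 (chromosome 18, 39410545 to 39519421, minus strand, GRCm38) was at 96.2, 172 and 81.4 CPM in NSD2fl/fl and at 101, 154 and 116 CPM in NSD2∆IE. The highest library was NSD2fl/fl replicate 2 and the lowest NSD2fl/fl replicate 3, so the control group spanned the mutant group. Means were 117 ± 48.8 and 123 ± 27.2 CPM (SD, n = 3 per group), with a log2 fold change of 0.08 (95% interval -0.65 to 0.81, SE 0.31) and an adjusted p of 0.935. The direction turned to -0.04, -0.12 and -0.11 without NSD2fl/fl replicate 1, NSD2fl/fl replicate 3 and NSD2∆IE replicate 2, and the value was 0.47 without NSD2fl/fl replicate 2. In the fit with the division of the libraries by the first principal component as a factor it was -0.09.

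Hsd11b1 (chromosome 1, 193221634 to 193264075, minus strand) had the second largest fitted increase of the set. It was at 6.18, 9.01 and 7.89 CPM in NSD2fl/fl (238, 319 and 281 counts) and at 7.24, 12.2 and 12.1 CPM in NSD2∆IE (287, 484 and 504 counts). NSD2∆IE replicates 2 and 3 lay above every control library, while NSD2∆IE replicate 1 lay among the controls. The means of 7.70 ± 1.43 and 10.5 ± 2.85 CPM gave a log2 fold change of 0.45 (95% interval -0.16 to 1.07, SE 0.26, adjusted p 0.578). It was 0.67 (unadjusted p 0.0206) without NSD2∆IE replicate 1, and 0.24 (unadjusted p 0.264) with the division by the first principal component as a factor.

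Hsd11b2, which inactivates the same steroid, was at 583, 208 and 298 CPM in NSD2fl/fl and at 486, 269 and 288 CPM in NSD2∆IE. The highest library of each genotype was its replicate 1, and the groups overlapped over most of their range. Its log2 fold change was -0.06 (SE 0.41, 95% interval -1.05 to 0.93, adjusted p 0.966), and it was 0.46 without NSD2fl/fl replicate 1. Set per length, Hsd11b2 was at 104 to 319 FPKM, so that its transcript exceeded that of Hsd11b1 in every library. These are transcript levels of bulk tissue, and neither enzyme was measured. The log2 ratio of Hsd11b1 to Hsd11b2 in FPKM was -6.40, -4.36 and -5.07 in NSD2fl/fl and -5.91, -4.30 and -4.40 in NSD2∆IE. The means of -5.28 ± 1.03 and -4.87 ± 0.90 differed by 0.41 (exact permutation test, two-sided, p = 0.6, where 0.1 is the smallest p that 3 against 3 allows). The difference was -0.15 without NSD2fl/fl replicate 1. The ratio was lowest in the replicate 1 library of each genotype. NSD2fl/fl replicate 2 and NSD2∆IE replicates 2 and 3, the libraries low in Hoxb13, lay side by side and above each library high in it. Hsd11b2 itself was lower in each library low in Hoxb13 than in each library high in it. The part of this division in the ratio was not tested.

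Other genes of steroid handling were read from a list of 16, of which 13 had a row and 10 were tested. None passed the threshold of the study in either direction, and the median log2 fold change was -0.07. When NSD2fl/fl replicate 2 was left out, 1 passed in each direction. Abcb1a, an efflux pump that exports glucocorticoids, had the smallest unadjusted p (0.145), at 353, 572 and 194 CPM against 473, 943 and 456 CPM. NSD2∆IE replicate 2 was its highest library and the other libraries overlapped. Nr3c2, the mineralocorticoid receptor, was at 138, 134 and 97.0 CPM against 120, 107 and 82.3 CPM (log2 fold change -0.26, adjusted p 0.665). Nr5a2, a nuclear receptor that drives steroid synthesis in intestinal crypts, had a log2 fold change of -0.18 (adjusted p 0.758), and Akr1c14, an enzyme that reduces steroid hormones, one of -0.22 (adjusted p 0.745).

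Fkbp5 (chromosome 17, 28399094 to 28517527, minus strand), an immunophilin that binds the receptor complex and lowers its affinity for hormone, had nearly the same order of libraries as the receptor. Other genes, named below, were nearer in profile to Nr3c1 and to Fkbp5 than these were to each other. Fkbp5 was at 182, 402 and 201 CPM in NSD2fl/fl and at 248, 344 and 266 CPM in NSD2∆IE. As for Nr3c1, NSD2fl/fl replicate 2 was highest, NSD2∆IE replicate 2 next, and NSD2fl/fl replicates 1 and 3 were the lowest. Means were 262 ± 122 and 286 ± 51.1 CPM, with a log2 fold change of 0.13 (SE 0.32, 95% interval -0.64 to 0.90, adjusted p 0.902). The log2 fold change was 0.58 (unadjusted p 0.0190) without NSD2fl/fl replicate 2, and it was below 0 without NSD2fl/fl replicate 1 (-0.08), NSD2fl/fl replicate 3 (-0.03) or NSD2∆IE replicate 2 (-0.03). With the division by the first principal component as a factor it was -0.01.

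Tsc22d3 (chromosome X, 140539528 to 140600659, minus strand) encodes GILZ, a leucine zipper protein that mediates anti-inflammatory effects of glucocorticoids. Its levels were 98.0, 85.6 and 104 CPM in NSD2fl/fl and 127, 89.8 and 108 CPM in NSD2∆IE. NSD2∆IE replicates 1 and 3 were above the controls, and NSD2∆IE replicate 2 was among them. Means of 95.7 ± 9.22 and 108 ± 18.4 CPM gave a log2 fold change of 0.18 (SE 0.15, 95% interval -0.19 to 0.54, adjusted p 0.706). The value was 0.06 without NSD2∆IE replicate 1, 0.10 without NSD2fl/fl replicate 2, 0.29 without NSD2∆IE replicate 2 and 0.30 with library totals alone. This gene varied least of the set, by 1.48-fold between its lowest and highest library. It lies on the X chromosome, and its part in the sex pattern given above cannot be told apart from genotype.

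Zbtb16 (chromosome 9, 48654297 to 48836222, minus strand) encodes PLZF, a zinc finger transcription factor that is also made by innate-like T cells, and had the largest fitted increase of the 7 genes. It was at 42.2, 12.9 and 29.8 CPM in NSD2fl/fl and at 45.1, 36.3 and 43.7 CPM in NSD2∆IE. A single library, NSD2fl/fl replicate 2, lay far below the others, and NSD2fl/fl replicate 1 lay within the mutant range. Means were 28.3 ± 14.7 and 41.7 ± 4.76 CPM, with a log2 fold change of 0.56 (SE 0.39, 95% interval -0.37 to 1.48, adjusted p 0.639). The value was 0.21 when NSD2fl/fl replicate 2 was left out and 0.97 when NSD2fl/fl replicate 1 was left out (unadjusted p 0.0418, adjusted p 0.290). With the division by the first principal component as a factor it was 0.97, with an unadjusted p of 0.0199. Zbtb16 spanned 3.51-fold over the 6 libraries, the widest range of the set, of which 3.28-fold was within NSD2fl/fl and 1.24-fold within NSD2∆IE.

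Klf9 (chromosome 19, 23141226 to 23168134, plus strand), a Krüppel-like factor that feeds back on glucocorticoid action and is under clock control in several tissues, had means that nearly coincided. It was at 134, 82.0 and 108 CPM in NSD2fl/fl and at 114, 104 and 98.8 CPM in NSD2∆IE. The controls held both the highest and the lowest library. Means were 108 ± 26.0 and 106 ± 7.50 CPM, with a log2 fold change of -0.04 (SE 0.18, 95% interval -0.47 to 0.40, adjusted p 0.954). Scaling by library totals alone turned it to 0.08 and upper-quartile factors to 0.03, so no direction is given for Klf9.

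Cdkn1a (chromosome 17, 29090976 to 29100727, plus strand), which encodes the cell cycle inhibitor p21 and is a target of p53 as well as of the receptor, was the gene of the set with the largest fitted decrease. It was at 237, 240 and 211 CPM in NSD2fl/fl and at 225, 158 and 189 CPM in NSD2∆IE. NSD2∆IE replicates 2 and 3 lay below every control library, and NSD2∆IE replicate 1 lay among them. The means of 229 ± 16.1 and 190 ± 33.7 CPM gave a log2 fold change of -0.27 (SE 0.16, 95% interval -0.64 to 0.11, adjusted p 0.588). It was -0.40 (unadjusted p 0.0459) without NSD2∆IE replicate 1, -0.15 (unadjusted p 0.397) without NSD2∆IE replicate 2 and -0.14 with library totals alone. Among 16 further targets of p53, none passed the threshold of the study, and 13 of 16 were fitted lower with TMM factors but 7 of 16 with library totals alone, where the median moved from -0.11 to 0.01, so no direction is given for them. Without NSD2fl/fl replicate 1 or NSD2∆IE replicate 1 the count past the threshold downward was 1 and 2, and without NSD2fl/fl replicate 3 it was 1 upward. Perp, a desmosomal protein of epithelia, was at 184, 301 and 233 CPM against 164, 205 and 177 CPM (log2 fold change -0.39, adjusted p 0.530). Trp53inp1 had a log2 fold change of -0.29 (adjusted p 0.566), Zmat3 one of -0.16 (adjusted p 0.699) and Phlda3, an inhibitor of AKT, one of 0.35 (adjusted p 0.689).

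**Figure D2:**
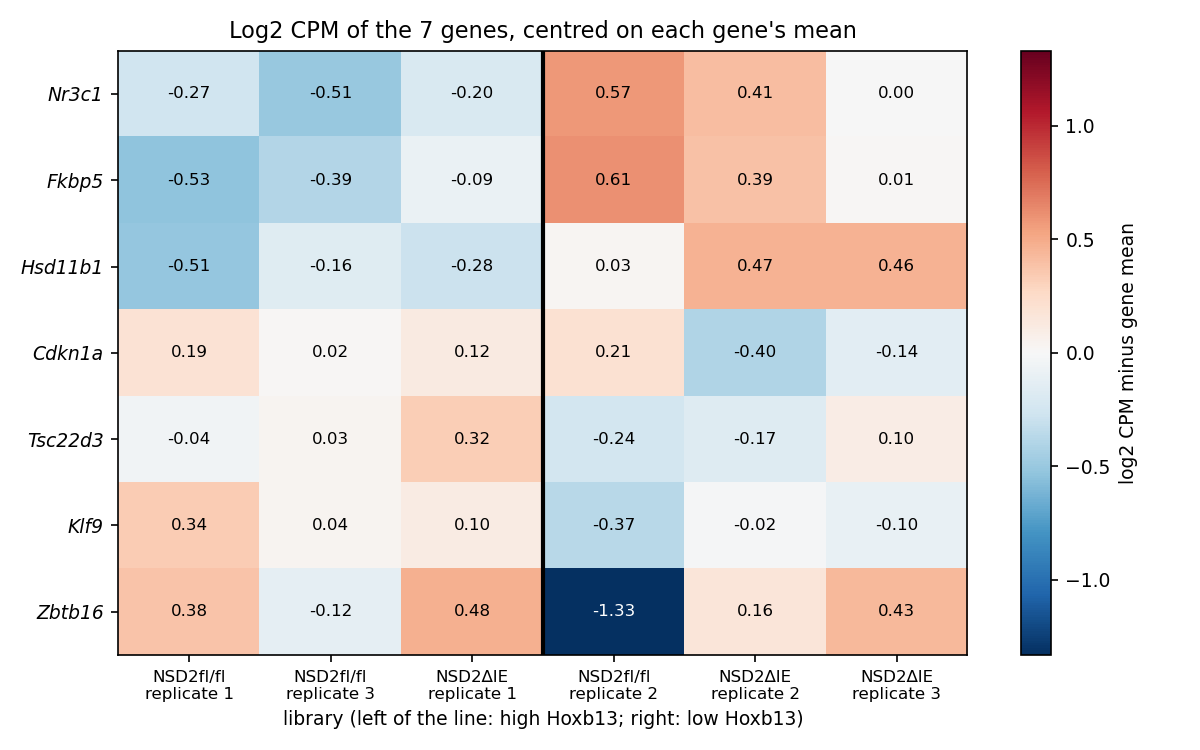
Log2 CPM of each gene minus its own mean over the 6 libraries, as colour and as the printed value, with libraries high in Hoxb13 left of the line and low in Hoxb13 right of it. Nr3c1, Fkbp5 and Hsd11b1 are below their mean in all 3 libraries on the left. Zbtb16, Klf9 and Tsc22d3 are lowest in NSD2fl/fl replicate 2.

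The genes did not vary as one block. Profiles over the 6 libraries were compared by the root mean square difference of centred log2 CPM, a description over 6 libraries of like depth that includes the genotype difference. Nr3c1 and Fkbp5 were the closest pair (0.127), with the same order of libraries except for the 2 lowest. Tsc22d3 and Klf9 came next (0.214), then Tsc22d3 and Cdkn1a (0.260) and Klf9 and Cdkn1a (0.287). Fkbp5 and Zbtb16 were farthest apart (0.932), and NSD2fl/fl replicate 2, the highest library for Fkbp5, was the lowest for Zbtb16. Nr3c1, Fkbp5 and Hsd11b1 stood higher in each of the 3 libraries low in Hoxb13 than in each of the 3 libraries high in it. Klf9 stood lower in each of the 3 libraries low in Hoxb13 than in each of the 3 high in it. This division is also that of the first principal component, with 51.0% of the variance. The share of all genes that part the libraries in this way was not counted. T cell markers (7 genes, summed 29.3 to 55.5 CPM in NSD2fl/fl and 36.3 to 54.2 CPM in NSD2∆IE, none at 0) and B and plasma cell markers (8 genes, summed 1271 to 2437 and 1056 to 1533 CPM, none at 0) moved with the same division in their mean log2 levels. These were 2.02, 2.77 and 1.70 (T cell) and 4.74, 2.68 and 5.16 (B and plasma cell) in NSD2fl/fl, and 2.13, 2.76 and 2.65 and 4.57, 3.27 and 3.43 in NSD2∆IE. The part of these cells in the levels of Nr3c1, Fkbp5, Hsd11b1 and Klf9 was not tested.

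Within the libraries high in Hoxb13 (2 NSD2fl/fl against 1 NSD2∆IE) the log2 difference of NSD2∆IE to NSD2fl/fl was 0.19 for Nr3c1, 0.37 for Fkbp5, 0.05 for Hsd11b1 and 0.01 for Cdkn1a. Within the libraries low in Hoxb13 (1 against 2) the same differences were -0.37, -0.41, 0.43 and -0.47. The receptor and Fkbp5 thus had opposite signs in the 2 sets. Tsc22d3 was at 0.33 and 0.20 and Zbtb16 at 0.35 and 1.63, above 0 in both, and Klf9 was at -0.09 and 0.31. With a single library in 1 arm of each set, these differences were not tested.

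For each gene, the other genes of closest profile were found among genes of average log2 CPM of at least 1. Nr3c1 was nearest to Mier1 (0.0356) and Rxra (0.0401), the latter a nuclear receptor that pairs with many others. Fkbp5 was nearest to Slc52a2, a riboflavin transporter (0.0637), and Adap1 (0.0661). Hsd11b1 was nearest to Slc1a4, a neutral amino acid transporter (0.0582), and Cd24a (0.0835). Tsc22d3 was nearest to Fgf7, a fibroblast growth factor for epithelium (0.0375), and Zfpm1 (0.0552). Zbtb16 had the most distant neighbours, Fxyd6 (0.111) and Ctf1 (0.114). Klf9 was nearest to Lyst (0.0332) and Bicd2 (0.0411), and Cdkn1a to 4831440E17Rik (0.0343) and Ifnlr1, the receptor chain for interferon lambda (0.0491). These distances describe 6 libraries and carry no test.

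Partners of the receptor were read from a list of 22 chaperones, coregulators and remodellers. None passed the threshold of the study, and 21 of 22 were fitted lower in NSD2∆IE, with a median log2 fold change of -0.23 against -0.04 over all genes tested. With library totals alone, which moved the values of all genes by a median of 0.13, 18 of 22 were fitted lower, with a median of -0.10 against 0.09. The count past the threshold was 6 when NSD2fl/fl replicate 1 was left out and 2 when replicate 3 was, all lower. Over all genes tested the count lower was 361 with all libraries, and 725 and 458 with the same libraries left out. In 5 of 22 the groups did not overlap, each lower in NSD2∆IE, against 1190 of all 16347 genes tested, of which 9202 were fitted lower. Beside this list, 9 of 10 epithelial markers were fitted lower, with a median of -0.28, and markers of muscle and nerve higher, and their part in the level of the partners was not tested. Smarca4, the ATPase of the SWI/SNF remodeller, was at 144, 153 and 156 CPM against 126, 124 and 125 CPM (log2 fold change -0.27, SE 0.10, unadjusted p 0.0264, adjusted p 0.383). Nrip1, a corepressor of nuclear receptors, was at 85.0, 77.5 and 72.4 CPM against 67.6, 68.1 and 60.1 CPM (-0.26, adjusted p 0.441). Neither reached the fold change asked by the study. Hspa8, a constitutive chaperone of the HSP70 family, had a log2 fold change of -0.54 (adjusted p 0.463) and Med1, the Mediator subunit that nuclear receptors bind, one of -0.23 (adjusted p 0.491).

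Targets of the receptor outside the set gave 3 genes past the threshold of the study, all higher with all 6 libraries. Of 31 such targets, 16 were fitted higher and 15 lower, with a median log2 fold change of 0.01. In 3 of the 31 the groups did not overlap, each higher in NSD2∆IE, against 18.7% of all genes tested. By the threshold of the study the share that was higher was near the 8.05% of all genes tested, and 0 were lower against 2.21%. The counts were 3 higher and 3 lower without NSD2∆IE replicate 1. Leaving out an NSD2fl/fl library gave 3 higher (replicate 1), 6 higher (replicate 2) or 2 higher (replicate 3), each with 1 lower. Over all genes tested the count lower was 361 with all libraries and 601 without NSD2∆IE replicate 1. It was 458 to 725 when an NSD2fl/fl library was left out. Sgk1, a kinase induced by glucocorticoids and mineralocorticoids that raises epithelial sodium uptake, was at 75.1, 76.8 and 101 CPM in NSD2fl/fl and at 162, 119 and 146 CPM in NSD2∆IE. Every mutant library lay above every control library. Means were 84.4 ± 14.6 and 142 ± 21.9 CPM, with a log2 fold change of 0.75 (SE 0.17, 95% interval 0.34 to 1.16). Its p was 0.00352 unadjusted and 0.302 adjusted. Sgk1, Fam107a and their directions kept an unadjusted p under 0.05 in all 16 alternatives. Fam107a, an actin-binding protein also called DRR1, was at 11.0, 6.56 and 7.30 CPM against 13.6, 19.8 and 21.0 CPM, again without overlap, and its log2 fold change was 1.13 (SE 0.26, adjusted p 0.302). Per1, a clock repressor that the receptor induces directly, was at 54.5, 34.0 and 32.7 CPM against 72.4, 50.0 and 64.4 CPM, with an overlap between NSD2fl/fl replicate 1 and NSD2∆IE replicate 2 (log2 fold change 0.62, adjusted p 0.414). Without NSD2fl/fl replicate 2 or 3, or NSD2∆IE replicate 1 or 3, the unadjusted p of Per1 was 0.0839 to 0.115, and its value stayed at 0.49 or above. Cdkn1c, the cell cycle inhibitor p57, had a log2 fold change of 0.50 (adjusted p 0.500). By the Wald test of DESeq2 the adjusted p of Sgk1 was 0.0116 and that of Fam107a 0.00944.

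**Figure D3:**
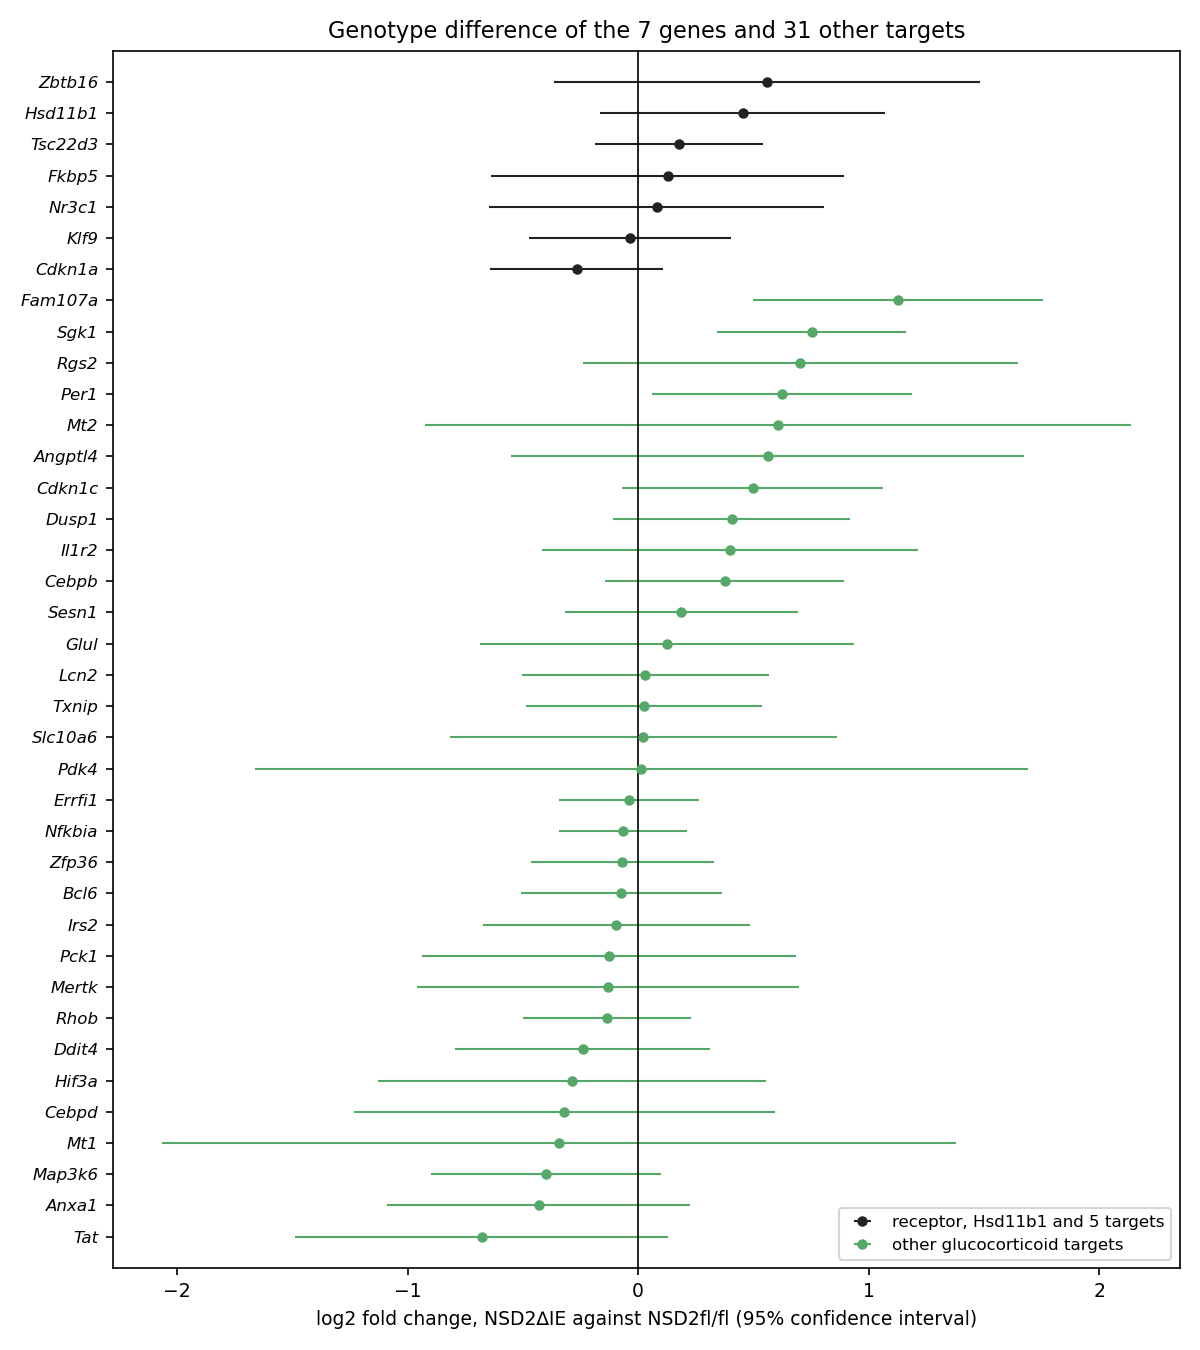
Log2 fold change of NSD2∆IE against NSD2fl/fl (horizontal axis, points) with its 95% interval (bars) for the 7 genes in black and for 31 other targets in green, ordered by value within each. The intervals of all 7 genes cross 0, and those of Fam107a, Sgk1 and Per1 lie above 0.

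The 5 targets of the set had fitted log2 fold changes of -0.27 to 0.56. The 31 other targets ran from -0.68 to 1.13, with a median of 0.01. In bulk tissue, fewer cells of a type and less RNA per cell cannot be told apart, and markers of other tissue layers differed between the genotypes beside these genes. All 10 smooth muscle markers were fitted higher in NSD2∆IE, 9 of them past the threshold of the study, with a summed level of 1681 to 4428 CPM in NSD2fl/fl and 5527 to 11888 CPM in NSD2∆IE and none at 0. The count past the threshold was 4 without NSD2∆IE replicate 2 and 2 without NSD2∆IE replicate 3. All 10 enteric nervous system markers were likewise higher (summed 56.5 to 94.0 against 119 to 161 CPM, none at 0). All 7 adipocyte markers tested were higher (25.6 to 34.1 against 53.5 to 121 CPM), with Adipoq, Plin1, Lep and Retn at 0 in at least 1 library. The part of these tissues, and of the epithelium given above, in the levels of Klf4, Cdkn1a, Sgk1, Fam107a, Per1, Zbtb16 and Hsd11b1 was not tested.

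**Figure D4:**
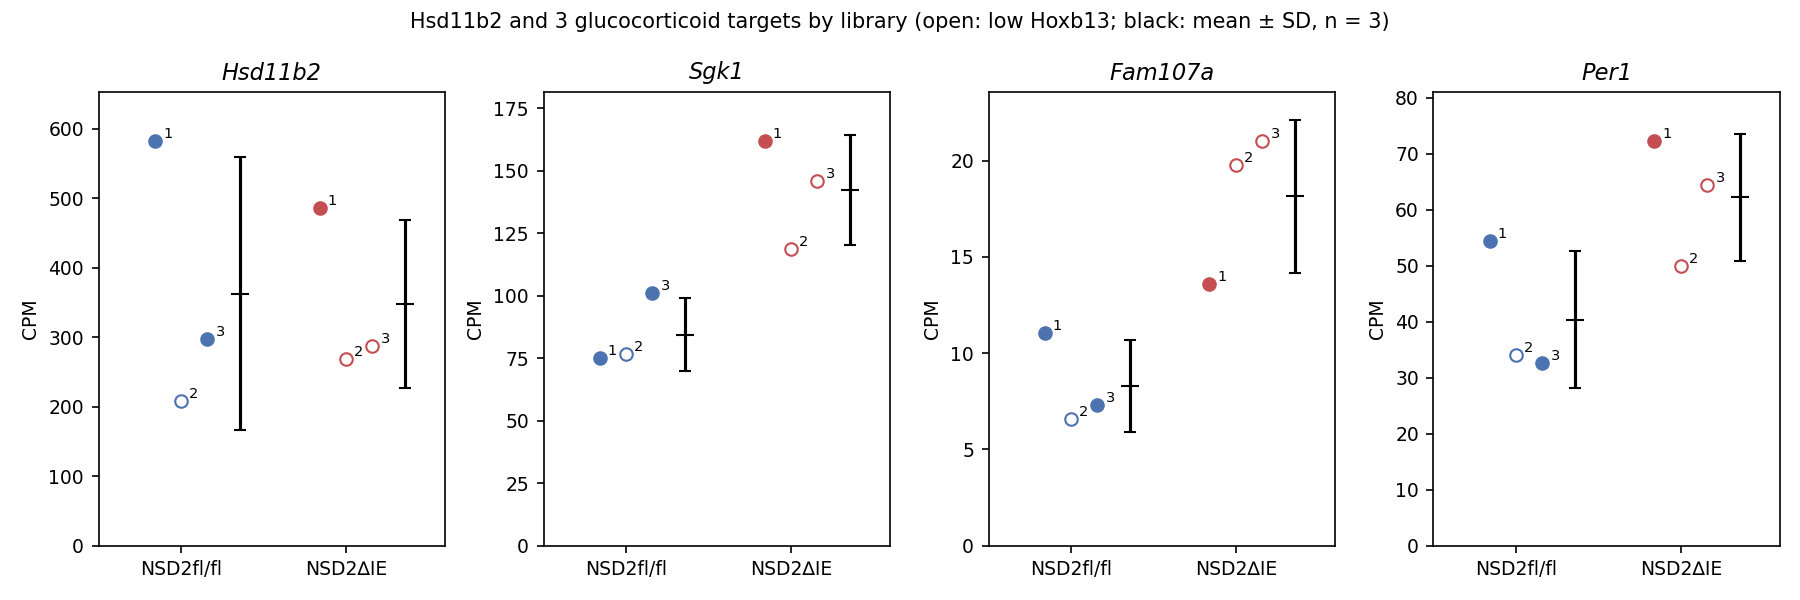
CPM of Hsd11b2 and of 3 targets outside the set in each library (numbered points for replicates, open where Hoxb13 was low, black bars for mean ± SD, n = 3). Sgk1 and Fam107a show no overlap between genotypes, Per1 overlaps in 1 pair of libraries and Hsd11b2 overlaps over most of its range.

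Genes that the receptor represses were read from a list of 20, of which 13 passed the filter on low counts. Past the threshold of the study were 1 higher and 1 lower, against 8.05% and 2.21% of all genes tested, and the median log2 fold change was 0.04. Ptgs2, the inducible cyclooxygenase, was at 3.58, 3.25 and 1.71 CPM against 5.45, 5.37 and 9.71 CPM (log2 fold change 1.26, SE 0.37, adjusted p 0.321), with no overlap. Tnf was at 0.805, 2.23 and 1.57 CPM against 0.353, 0.530 and 0.723 CPM (log2 fold change -1.51, SE 0.49, adjusted p 0.352), a gene of few reads. The unadjusted p of Tnf was 0.0551 without NSD2fl/fl replicate 2 and 0.0565 without NSD2∆IE replicate 1. Il1b, at 1.79 to 2.19 CPM against 2.37 to 3.95 CPM, did not pass (log2 fold change 0.64, adjusted p 0.452). Nos2, the inducible nitric oxide synthase, was at 0.987, 23.7 and 5.03 CPM against 0.883, 3.66 and 2.51 CPM, and its fitted log2 fold change of -2.07 was -0.35 without NSD2fl/fl replicate 2. The counts past the threshold were 3 higher and 0 lower without NSD2∆IE replicate 1, 2 higher and 1 lower without NSD2fl/fl replicate 2, and 1 higher and 2 lower without NSD2fl/fl replicate 1. With TMM factors, 7 of the 13 genes were fitted higher and 6 lower.

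Relatives of the 5 targets (Klf, Zbtb, Tsc22, Fkbp and Cdkn1 genes) were read from a list of 14, in which Klf4, a Krüppel-like factor of differentiated colonic epithelium, was the 1 gene past the threshold of the study, lower, against 2.21% of all genes tested. It was at 505, 447 and 464 CPM in NSD2fl/fl and at 420, 303 and 345 CPM in NSD2∆IE, without overlap (log2 fold change -0.41, SE 0.16, adjusted p 0.426). Without NSD2fl/fl replicate 1 or 3, or NSD2∆IE replicate 2 or 3, its unadjusted p was 0.0696 to 0.152, and with library totals alone it was 0.132. Zbtb7b had a log2 fold change of -0.25 (adjusted p 0.609) and Tsc22d2 one of 0.22 (adjusted p 0.614).

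Clock genes were included because glucocorticoids and the clock set each other and because Per1 belongs to both lists. Of 17 clock genes, 5 were past the threshold of the study upward and 4 downward (8.05% and 2.21% of all genes tested), with none at an adjusted p under 0.05. The count upward was 9 when NSD2fl/fl replicate 1 was left out, it was 2 when NSD2fl/fl replicate 2 or 3 or NSD2∆IE replicate 1 or 3 was, and the count downward was 2 without NSD2∆IE replicate 2 or 3. With library totals alone the counts were 6 and 2. Over all genes tested the count upward was 1316 with all libraries and 1692 without NSD2fl/fl replicate 1. It was 669 to 1550 when another library was left out. Npas2, an activator of the clock, was at 15.8, 37.7 and 24.9 CPM against 6.38, 9.03 and 5.38 CPM (log2 fold change -1.91, SE 0.36, adjusted p 0.302), and Arntl, its partner, at 17.2, 32.4 and 38.8 CPM against 14.5, 8.96 and 6.53 CPM (-1.56, adjusted p 0.303). Hlf, an output factor, was at 19.8, 15.1 and 10.6 CPM against 30.9, 33.2 and 30.1 CPM (1.05, adjusted p 0.302), and Bhlhe41 at 6.47, 4.78 and 5.45 CPM against 9.71, 8.20 and 8.36 CPM (0.65, adjusted p 0.312). In all 4 genes, named for the smallest unadjusted p of the list, the groups did not overlap. Over the 17 clock genes the groups did not overlap in 6 that were higher and 2 that were lower, against 18.7% of all genes tested. Circulating glucocorticoid varies over the day, and the time of collection and any corticosterone level were not given in the sources used here.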

How the data were processed

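RNA sequencing of mouse colon gave 6 libraries in 2 groups of 3 (labels). Per the labels, the submitters' processing notes name fastp, HISAT2, HTSeq, R 3.2.0 and mm10. The annotation and the use of strand in counting were not given in the sources used here. The authors deposited raw read counts per gene symbol and, from the same reads, FPKM values (reads scaled to gene length and library total). The labels do not say that each replicate is a separate animal, so p-values measure the spread between these samples, which may be technical. The smallest chi-square per degree of freedom between any pair of libraries was 35.5, and all 6 were kept as separate samples.

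Counts were tested with edgeR 4.0.16 in R 4.3.3 (filterByExpr, TMM factors, quasi-likelihood test, two-sided, no covariates, Benjamini-Hochberg adjustment over 16347 genes). CPM, SD and intervals (95%) are of TMM-scaled counts, and centred profiles use a prior count of 2. A count of 0 allows up to 3 counts (under 0.08 CPM), and such limits cover counting error only. FPKM served for levels between genes and for the Hsd11b1 to Hsd11b2 ratio (no pseudocount, exact permutation test). Alternatives used DESeq2 1.42.0, limma 3.58.1, other scalings, FPKM, a replicate block and leaving out each library. The steps were tested on simulated data.

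The 7 genes and all lists were chosen with earlier results of these data known. Named are the 7 genes, Nsd2 and the sex-linked genes, up to 4 genes of smallest p in each list, Hsd11b2 and Nr3c2, and the 2 nearest profiles of each gene. Promoters are from RefSeq (GRCm38.p6), and gene positions from GENCODE (GRCm38). No sequence was used for Nr3c1 or Zbtb16.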

Additional observations from a re-analysis of the deposited data

How the results depend on the processing

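Under 16 alternatives none of the 7 genes reached an adjusted p under 0.05, with a lowest value of 0.290 (Zbtb16 without NSD2fl/fl replicate 1). Hsd11b1, Tsc22d3 and Zbtb16 stayed above 0 and Cdkn1a below 0 in all 16. Klf9 turned to 0.030 (upper-quartile factors), 0.080 (library totals), 0.11 and 0.12 (limma on FPKM with a pseudocount of 1 or 0.1) and 0.11 with the first principal component split as a factor, and ran from -0.20 to 0.15 when each library was left out. With that split, Nr3c1 was -0.086 and Fkbp5 -0.014. Leaving out each library gave -0.12 to 0.47 for Nr3c1, -0.076 to 0.58 for Fkbp5 and -0.15 as the lowest difference in the Hsd11b1 to Hsd11b2 ratio, against a highest of 0.93. Hsd11b2 was 0.036 when scaled by library totals, 0.15 with both FPKM alternatives and 0.28 with the split, and -0.38 to 0.46 when each library was left out. The cause of these reversals was not tested.

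Of the 7 genes, 1 was higher by the threshold of the study with the split (Zbtb16), and leaving out each library gave 0 to 1 higher and 0 to 1 lower (Cdkn1a without NSD2∆IE replicate 1). The 3 other targets higher became 6 by library totals, 5 and 6 with the pseudocounts of 1 and 0.1 on FPKM, and 2 to 6 when each library was left out (6 without NSD2fl/fl replicate 2). The count lower, 0, became 1 with limma-voom and 1 with the split, and 0 to 3 when each library was left out (3 without NSD2∆IE replicate 1, 1 without any one NSD2fl/fl library). Over all genes, DESeq2 called 455 at an adjusted p under 0.05 against 5 by edgeR, with the FPKM pseudocount of 0.1 6 and 3 to 5 when a library was left out. Among the named genes DESeq2 called Nsd2, Sgk1, Fam107a, Ptgs2 (adjusted p 0.0499), Npas2, Hlf and Arntl. The split of all genes by the study's threshold was 1316 higher and 361 lower with TMM factors, 1577 and 200 with upper-quartile factors, and 1717 and 142 with library totals. When each library was left out it ran from 669 to 1692 higher and from 140 to 725 lower. The counts given above for each list without a library stand beside these shifts of all genes.

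The replicate numbers were not shown to pair the samples: same-numbered libraries deviated from their group means with correlations of 0.50, 0.64 and -0.17. With the replicate block, 1 of the 7 genes was higher (Zbtb16, log2 fold change 0.71, unadjusted p 0.0407), 7 other targets were higher and 1 lower, and Hsd11b2 was 0.020. Depth was similar in all libraries, and each group had 3 libraries. The parts of group size and of counting error in the precision were not tested.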
